A study of Homo sapiens with 6 samples.

Results

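The regions described here are chromatin sites of HLF, an established cell line from a human liver cancer, that were called open in all 3 DMSO libraries and in neither of the 2 deeply covered SNDX-5613 libraries. The assay was ATAC-seq, in which Tn5 transposase inserts adapters into DNA free of nucleosomes and pile-ups of the resulting fragments are called as peaks. Cells had received DMSO vehicle (0 μM inhibitor) or 5 μM SNDX-5613 (revumenib), an inhibitor of the contact between menin and MLL1, with 3 libraries per group from unmodified HLF cells and the same batch label on all 6. The labels state 24 h of treatment, whereas the study describes a longer exposure for this assay, so the duration is uncertain. The study's methods describe a replicate as 1 dish whose cells were divided between treatment and vehicle, so libraries with the same number are taken to share a dish. Overlapping peak regions of the 3 DMSO libraries and of SNDX-5613 replicates 1 and 2 were merged on chromosomes 1 to 22 and X, into 163356 sites. All 3 DMSO libraries had a peak at 67313 sites, and 2003 of those had no peak in SNDX-5613 replicate 1 or 2. These 2003 are called closed sites below. They were 2.98% of the sites with 3 DMSO peaks and 1.23% of all merged sites. Because the presence of peaks chose them, their difference between the groups is a description without a test.

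Menin, the product of MEN1, is a scaffold that tethers the histone methyltransferase MLL1 to chromatin, where the complex places the H3K4me3 mark at promoters of active genes. Open chromatin marks promoters as well as distal elements such as enhancers, which lie in introns or between genes and are the more cell-type-specific class.

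Windows of 201 bases centred on the strongest DMSO summit are shown first for 5 of the 6 closed sites ranked highest in DMSO, and then for the strongest closed site of MGAT4C, the gene with the largest group of neighbouring closed sites, which was added after its values were seen. All are given 5′ to 3′ on the plus strand of hg38. Capitals mark matches, on either strand, to short consensus motifs: CCAATCA or CCAATGA for NF-Y, TGANTCA for AP-1 and GGGCGG for SP. Windows without capitals held none of the 16 motifs searched.
RGS18 (nearest gene, intergenic), chr1:191641519-191641719: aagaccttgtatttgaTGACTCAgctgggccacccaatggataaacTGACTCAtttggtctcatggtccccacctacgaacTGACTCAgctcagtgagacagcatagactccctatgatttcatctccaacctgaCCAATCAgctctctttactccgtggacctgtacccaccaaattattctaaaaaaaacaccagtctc
PDE3A intron, chr12:20549231-20549431: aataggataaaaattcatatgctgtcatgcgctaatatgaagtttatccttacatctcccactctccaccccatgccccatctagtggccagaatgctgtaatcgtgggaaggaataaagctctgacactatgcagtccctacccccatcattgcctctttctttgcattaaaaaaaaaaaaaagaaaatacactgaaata
LNPEP intron, chr5:96997353-96997553: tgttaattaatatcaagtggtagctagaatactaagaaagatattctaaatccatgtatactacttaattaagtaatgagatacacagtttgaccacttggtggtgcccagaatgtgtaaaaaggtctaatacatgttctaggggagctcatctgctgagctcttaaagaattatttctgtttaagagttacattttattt
ZBTB46 promoter, chr20:63831277-63831477: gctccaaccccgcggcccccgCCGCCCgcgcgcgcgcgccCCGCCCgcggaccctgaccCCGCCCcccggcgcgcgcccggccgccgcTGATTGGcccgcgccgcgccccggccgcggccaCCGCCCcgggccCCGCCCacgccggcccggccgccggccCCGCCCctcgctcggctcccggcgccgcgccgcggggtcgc
CD63 (nearest gene, intergenic), chr12:55724696-55724896: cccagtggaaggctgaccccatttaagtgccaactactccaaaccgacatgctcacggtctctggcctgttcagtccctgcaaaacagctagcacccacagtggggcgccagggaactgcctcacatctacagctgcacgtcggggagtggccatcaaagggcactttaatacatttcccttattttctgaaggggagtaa
MGAT4C intron, chr12:86186552-86186752: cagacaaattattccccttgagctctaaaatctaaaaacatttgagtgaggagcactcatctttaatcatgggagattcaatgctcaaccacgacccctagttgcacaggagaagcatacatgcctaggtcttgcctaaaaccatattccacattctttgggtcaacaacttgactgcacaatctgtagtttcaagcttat

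The RGS18 window held 3 AP-1 matches and an NF-Y match, and the ZBTB46 window, with a GC content of 92.0%, held 6 SP matches and an NF-Y match. Over the windows of all merged sites, an NF-Y match was present in 6.76%, an AP-1 match in 15.6% and an SP match in 14.7%.

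Depth was read from the peak lists as the genome-wide background pileup, the usual number of fragments stacked at a position outside peaks. It ranged from 0.997 to 1.447 in DMSO, stood at 1.26 and 1.51 in the first SNDX-5613 replicates, and was 0.211 in SNDX-5613 replicate 3, which was 16.2% of the median of the other 5. The lowest pileup called at that background was 6 or 7 in the 5 deep libraries and 3 in SNDX-5613 replicate 3. The third SNDX-5613 library was therefore not used to choose sites and serves only as a look-up. Promoters of all 7 mesenchymal markers examined, including VIM, FN1 and ZEB1, had a peak in all 6 libraries. Of 10 hepatocyte markers, 2 to 4 had a promoter peak in the deep libraries and 0 in SNDX-5613 replicate 3, and ALB, APOA1, HNF4A and CYP3A4 were among those with none in any library. Promoter peaks were called for 2 of 4 epithelial, 1 of 4 blood and 1 or 2 of 3 endothelial markers.

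The closed sites were weak in DMSO. Each site was placed by its −log10 p among all regions of a library, as a rank percentile from 0 for the weakest to 100 for the strongest. The median closed site stood at percentile 24.4, 35.9 and 30.7 in DMSO replicates 1, 2 and 3, against 62.3, 70.8 and 65.8 for the other sites with 3 DMSO peaks. Its median pileup at the summit was 12, 15 and 15 fragments, against 31, 41 and 39 for the others. The lowest of the 3 DMSO percentiles was used as a single measure of strength. Closed sites made up 13.6% of the sites below percentile 20 (1047 of 7685) and 5.65% of those from 20 to 40 (690 of 12205). They made up 1.56% from 40 to 60 (238 of 15236), 0.176% from 60 to 80 (28 of 15944) and 0 of 16243 sites above 80. None of the strongest DMSO sites was thus among the closed ones.

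Sites just outside the rule bordered on these. Those with 3 DMSO peaks and a peak in only 1 of the 2 deep SNDX-5613 libraries numbered 5350 and had a median lowest percentile of 27.4, against 19.8 for closed sites. Those with 2 DMSO peaks and none in the deep SNDX-5613 libraries numbered 6088, with a median of 14.4. For the 59960 sites called in each of the 5 libraries the median was 62.6. In the opposite direction, 3964 sites had a peak in both deep SNDX-5613 libraries and in 0 of 3 DMSO libraries.

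Weak peaks can drop below a calling threshold with little change, so the room above the threshold was computed for each closed site. The DMSO pileup relative to background was scaled to the background of SNDX-5613 replicates 1 and 2, and divided by the lowest pileup that could be called there. The median closed site would have stood 1.87 times above that floor in SNDX-5613 replicate 1 and 1.95 times above it in replicate 2. It would have reached at least 1.5 times the floor in both libraries at 1479 sites (73.8%) and at least 2 times at 822, and it would have been below the floor in at least 1 of them at 7. A site at 2 times the floor needs a fall of the pileup by no more than that factor to lose its call, so absence of a peak does not show that a site was shut entirely. The DMSO pileups come from the libraries that chose the sites, so they can stand too high. Counting error in the SNDX-5613 libraries was not included. The ratios thus do not show how many calls were lost without a change in signal. The nearest peak of SNDX-5613 replicate 1 or 2 lay at a median distance of 4700 bp, and within 500 bp at 200 sites (9.99%).

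SNDX-5613 replicate 3 took no part in the choice of sites. It had a peak at 50 of the 2003 closed sites (2.50%, 95% Wilson interval 1.90% to 3.28%, which covers counting error over sites only). Within each class of DMSO strength that held closed sites, they had fewer peaks there than the others. Strength was not matched within the classes, and the closed share falls as strength rises. Below percentile 20 the shares were 2.29% of closed and 12.1% of other sites. They were 2.61% and 18.9% from 20 to 40, 2.94% and 34.5% from 40 to 60, and 3.57% and 62.2% from 60 to 80. This is a single library, so the difference has no replicate check and no test.

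**Figure D1:**
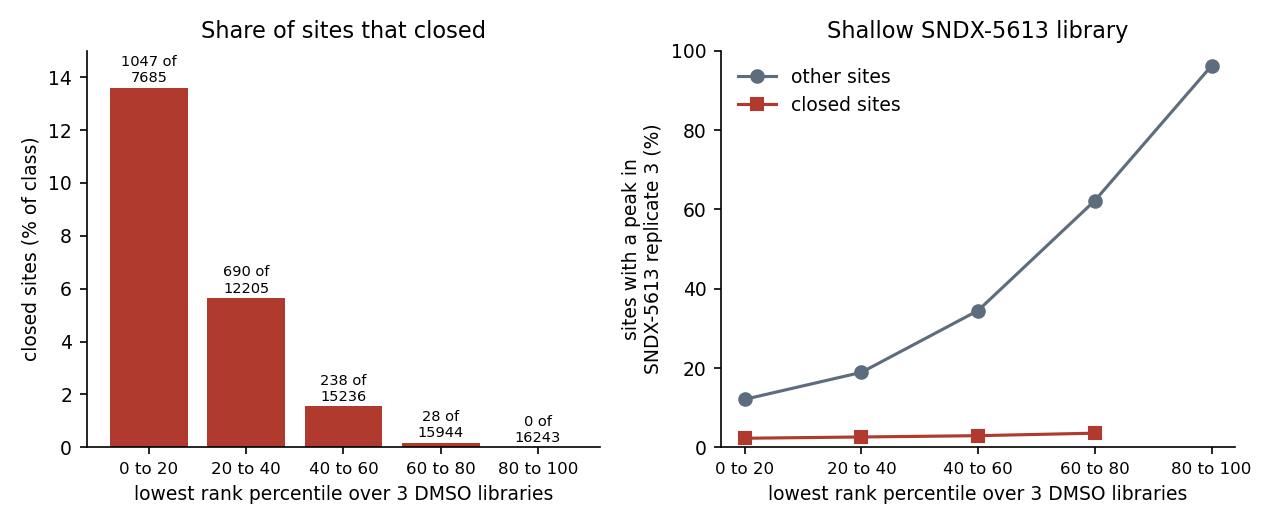
Left, bars give closed sites as a percent of all sites with 3 DMSO peaks in each class of the lowest DMSO rank percentile, with counts above the bars. Right, points give the percent of closed sites (squares) and other sites (circles) with a peak in the shallow SNDX-5613 replicate 3. The closed share falls from 13.6% to 0, and the shallow library has a peak at 2.29% to 3.57% of closed sites while the share among other sites rises with strength.

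The closed sites with a peak in the shallow library include strong ones. The 4 highest in DMSO lay in introns of FNDC3A and SUCO, 44025 bp from the start of the amylase gene AMY1C, and in an intron of SOX5, which encodes a SOX transcription factor. The FNDC3A site had −log10 p of 28.5, 43.8 and 24.3 in DMSO replicates 1, 2 and 3 and of 6.99 in SNDX-5613 replicate 3, from a pileup of 5 fragments. At SUCO the DMSO values were 21.5, 22.8 and 25.6, with 4.16 in the shallow library, from a pileup of 3 fragments. Such pileups stand at or near the lowest that the shallow library calls.

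The strongest closed site of all lay between genes on chromosome 1, 516800 bp from RGS18, a regulator of G-protein signalling. Its −log10 p was 41.1, 63.2 and 41.0 in DMSO replicates 1, 2 and 3, from pileups of 38, 60 and 42 fragments. The PDE3A site, in an intron of a phosphodiesterase that degrades cyclic AMP, had −log10 p of 58.2, 64.1 and 40.7. The LNPEP site, 1068 bp from the start of a gene for a membrane aminopeptidase, had 51.6, 73.9 and 40.7. For these 3 sites the DMSO pileup, at the depth of the SNDX-5613 libraries, would have stood 6.86, 8.37 and 8.64 times above the calling floor, the widest room among closed sites of the leading 12. The nearest peak of either deep SNDX-5613 library was 9039 bp away or more, and SNDX-5613 replicate 3 had none at any of the leading 12.

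Of the other leading sites, the one nearest to CD63, a tetraspanin of endosomes, lay 1169 bp from its start and had −log10 p of 50.3, 47.1 and 35.5. The SEMA3E site lay 7017 bp from the start of a gene for a secreted guidance cue and had 32.9, 30.9 and 32.4. Introns of PIGN, which acts in the synthesis of glycosylphosphatidylinositol anchors, and of APBB2, an adaptor that binds the amyloid precursor protein, held the sites with lowest DMSO percentiles of 68.0 and 67.1. The sites next to NBPF9 and PLCXD1 had 5 and 4 near-identical places in the genome, so reads there may have come from another copy. Over all closed sites, 73 (3.64%) had another such copy, against 5.10% of the other sites, and the aligner used passes over the most frequent sequences. The copy counts thus do not cover frequent sequence. A run of 20 bases from the window of the LINGO2 site was present in 3.15% of closed and 0.948% of other sites. For the strongest closed site of PCDH15 these shares were 4.84% and 1.53%. The LINGO2 and RGS18 sites, among others, lay in the SNDX-5613 consensus set although neither deep library had a peak there. This held for 468 closed sites (23.4%), against 96.6% of the other sites, and 87.4% of closed and 98.8% of other sites lay in the DMSO consensus set.

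**Figure D2:**
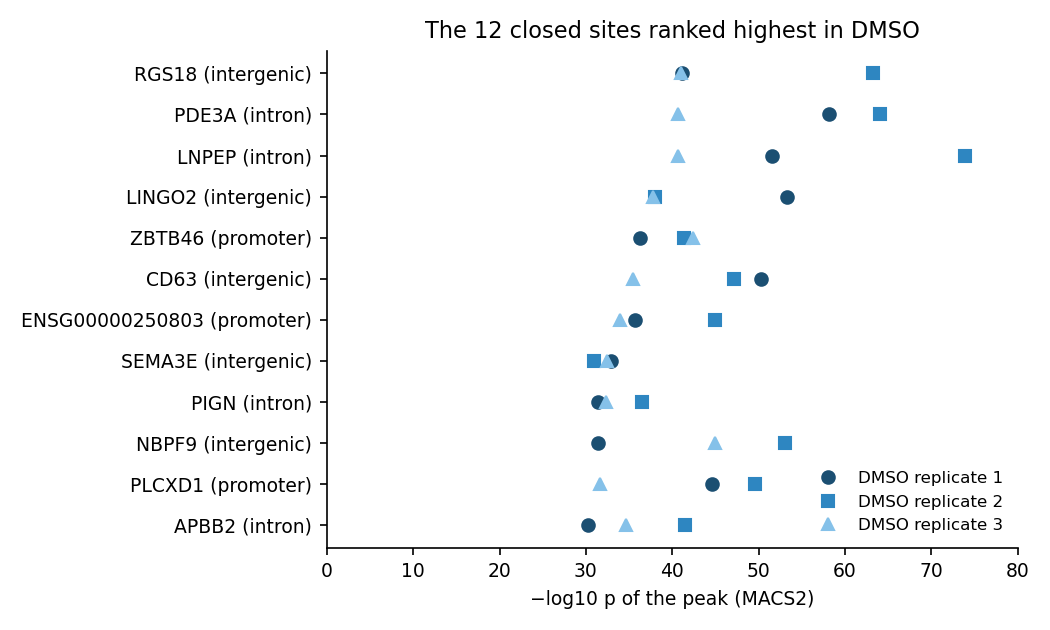
Points give the −log10 p of the peak in DMSO replicates 1 (circle), 2 (square) and 3 (triangle) at the 12 closed sites with the highest lowest rank percentile, labelled by their gene (for intergenic sites the nearest protein-coding gene). All values lie between 30.3 and 73.9, and no SNDX-5613 library had a peak at any of them.

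Most closed sites lay away from promoters. Of the 2003, 59.5% lay in introns, 27.1% between genes, 9.64% within 1 kb of a transcription start site and 3.79% in exons. For the other sites with 3 DMSO peaks these shares were 39.1%, 26.8%, 30% and 4.11%. Read the other way, 4.46% of intronic, 3.01% of intergenic, 2.75% of exonic and 0.975% of promoter sites were closed. The class of weak sites holds fewer promoters, so the shares were also taken within classes of the lowest DMSO percentile. Below percentile 20, 9.07% of sites within 1 kb of a start site were closed, 12.1% at 1 to 10 kb, 14.0% at 10 to 50 kb, 17.7% at 50 to 200 kb and 27.5% at 200 kb or more. From percentile 20 to 40, the same distances had 3.34%, 4.99%, 5.71%, 8.56% and 12.8%. The closed share was thus highest far from start sites in both classes, within which the distances were not matched for strength. At percentile 40 or more it was 0.172%, 0.688%, 0.661%, 1.36% and 1.89%, but this class has no upper bound, and the distances were not matched for strength within it. Closed sites were also shorter than the others (median 241 and 489 bp) and had a lower GC content in their 201-base windows (median 47.8% and 53.7%).

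Introns of long genes held more of them. The median host gene of a closed intronic site measured 207 kb, against 137 kb for the other intronic sites. In genes under 50 kb, 2.85% of intronic sites with 3 DMSO peaks were closed (147 of 5154). The share was 3.79% in genes of 50 to 200 kb, 4.71% from 200 to 500 kb, 8.70% from 500 to 1000 kb (206 of 2367) and 9.95% in genes of 1000 kb or more (79 of 794). In sites of percentile 20 to 40 it went from 4.47% in the shortest to 14.9% in the longest class. Among the weakest sites it went from 12.9% in the shortest class to 25.9% at 500 to 1000 kb, and was 21.1% in the longest, which held only 166 such sites. Host gene lengths were not matched for strength within these classes of DMSO percentile.

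**Figure D3:**
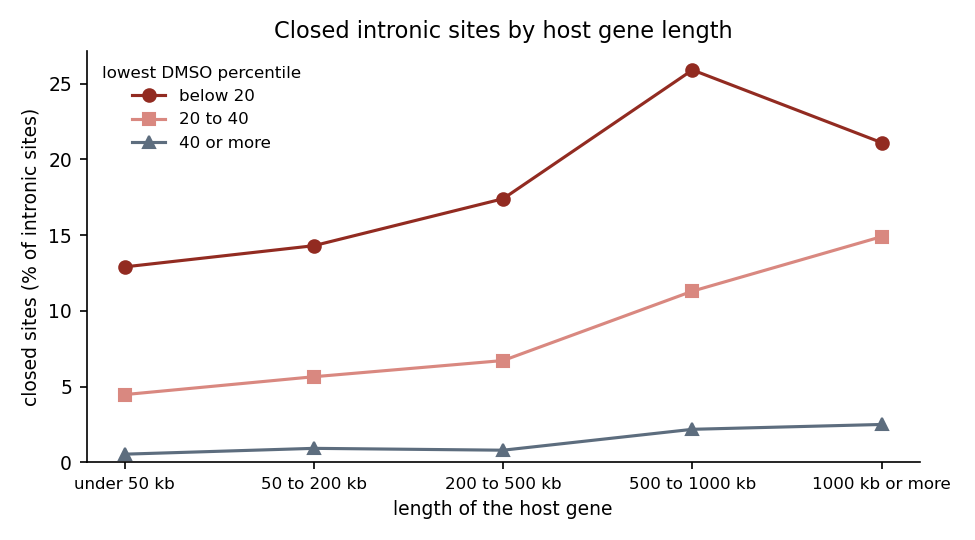
Points give closed sites as a percent of intronic sites with 3 DMSO peaks, by the length of the host gene, for sites with a lowest DMSO percentile below 20 (circles), 20 to 40 (squares) and 40 or more (triangles). In each class of strength the share is lowest in genes under 50 kb, and among the weakest sites it peaks at 25.9% in genes of 500 to 1000 kb.

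Closed sites gathered along chromosomes. Another closed site lay within 50 kb of 462 of them (23.1%), while 10.8% of the other sites with 3 DMSO peaks had a closed site that near. Within 10 kb the shares were 8.54% and 2.70%, and within 200 kb 44.5% and 31.4%. Linking neighbours within 50 kb gave 39 groups of at least 3 closed sites, which held 172 of them (8.59%). The genome was also divided into 1-Mb bins. Of 2230 bins with at least 8 sites, 1142 (51.2%) held no closed site, and 60 bins in which 20% or more of the sites were closed held 319 closed sites (15.9%) but 1.68% of all sites with 3 DMSO peaks.

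Most sites of those 60 bins that the 5 deep libraries shared also ranked lower with SNDX-5613, except below percentile 20. There, 620 sites were called in each of the 5 deep libraries and had a median rank percentile of 57.2 in DMSO and 51.2 in SNDX-5613 replicates 1 and 2, and 66.3% of them ranked lower in SNDX-5613. Elsewhere 46.5% of the 59340 shared sites did. At percentile 40 or more the shares ranking lower were 69.3% and 49.8%, while below percentile 20, where only 75 shared sites lay in these bins, they were 48.0% and 28.9%. The bins were chosen for their closed sites, in the same libraries, so these shares are a description. In the shallow SNDX-5613 replicate 3, a peak was called at 56.1% of the shared sites of percentile 40 or more in these bins and at 67.0% elsewhere. The median DMSO percentile of these shared sites was 68.2 in the bins and 76.6 elsewhere, so they were not matched for strength. From percentile 20 to 40 the shares with a peak were 19.6% and 21.8%. Below percentile 20 the order was the other way, 18.7% and 14.8%.

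By chromosome, the closed share was highest on chromosome 21 (6.65%, 64 of 962 sites), 18 (5.45%), 13 (5.12%) and 4 (4.87%). It was lowest on chromosome 19 (1.56%, 50 of 3207 sites), X (1.62%) and 20 (1.69%). Strength moved with these shares in part, since the median lowest DMSO percentile was 50.8 on chromosome 21 and 66.3 on chromosome 19. Its part in the order of chromosomes was not tested.

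**Figure D4:**
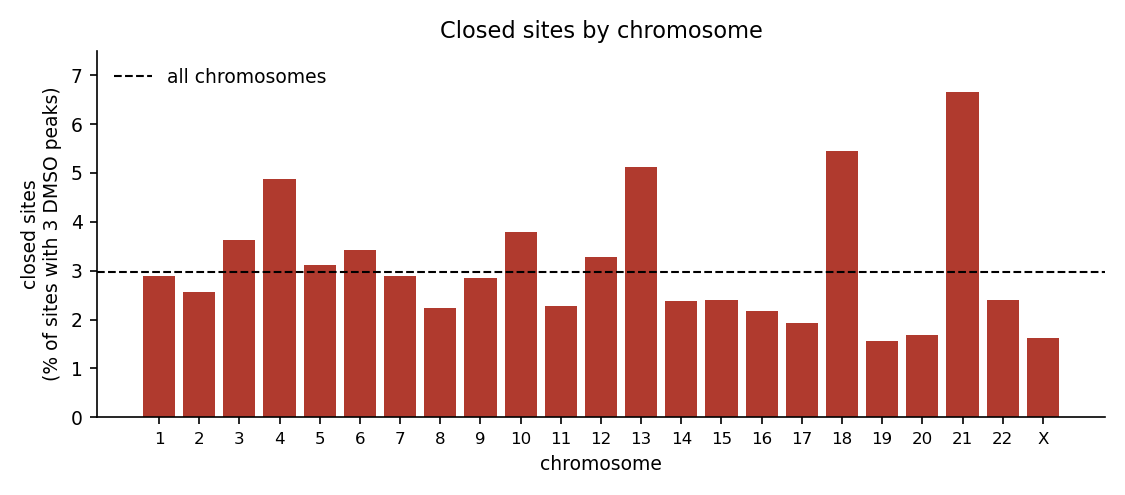
Bars give closed sites as a percent of the sites with 3 DMSO peaks on each chromosome, and the dashed line gives 2.98%, the share over all chromosomes. Chromosome 21 stands highest at 6.65%, followed by 18, 13 and 4, and chromosome 19 lowest at 1.56%.

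The group with most closed sites lay in MGAT4C, which encodes a glycosyltransferase of the family that branches N-glycans. On chr12:86052900-86276086, a stretch of 223 kb, 17 of 26 sites with 3 DMSO peaks were closed (65.4%), 4 had a peak in 1 of the 2 deep SNDX-5613 libraries and 5 were shared by all 5. The DMSO libraries had 37, 56 and 44 called regions in this stretch, and the SNDX-5613 libraries had 10, 9 and 4, in order of replicate. Per 10000 called regions of a library, that was 4.21 to 4.93 in DMSO and 0.929 to 0.986 in SNDX-5613, the shallow library included. The local background was read only at each library's own called regions, so its medians cover different sites. Its median was 1.54 to 1.62 times the genome-wide background in DMSO, and 1.16, 1.29 and 1.38 times in SNDX-5613 replicates 1, 2 and 3. Because the stretch was picked for its closed sites, these medians do not show a change of background. Whether signal changed over the whole stretch or at single sites was not tested. The strongest closed site, whose sequence is shown above, had −log10 p of 17.6, 20.7 and 18.9 in the 3 DMSO libraries, and the nearest deep SNDX-5613 peak lay 36046 bp away. SNDX-5613 replicate 3 had a peak at 1 of the 18 closed sites of the whole gene.

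PCDH15 encodes a protocadherin known from the tip links of sensory hair cells. Its body of 1825 kb on chr10:53802771-55627942 held 21 closed sites among 59 with 3 DMSO peaks (35.6%), the most of any gene. A further 18 had a peak in 1 of the 2 deep SNDX-5613 libraries, and 20 were shared by all 5. Called regions numbered 96, 161 and 130 in DMSO and 53, 41 and 11 in SNDX-5613. Per 10000 called regions of the library the gene had 10.9 to 14.2 in DMSO, 4.94 and 4.23 in SNDX-5613 replicates 1 and 2, and 2.71 in SNDX-5613 replicate 3. All 3 SNDX-5613 libraries lay below the DMSO libraries by this measure. The measure does not correct for depth, and SNDX-5613 replicate 3 called weak sites less often. Its lower value cannot be told apart from its low depth. The 21 closed sites were spread from 65.0 to 1754 kb from the gene's start, with lowest DMSO percentiles between 4.66 and 47.0, and SNDX-5613 replicate 3 had a peak at 0 of them. Within the gene, 6 of the 7 sites with 3 DMSO peaks on chr10:54486038-54588883 were closed.

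**Figure D5:**
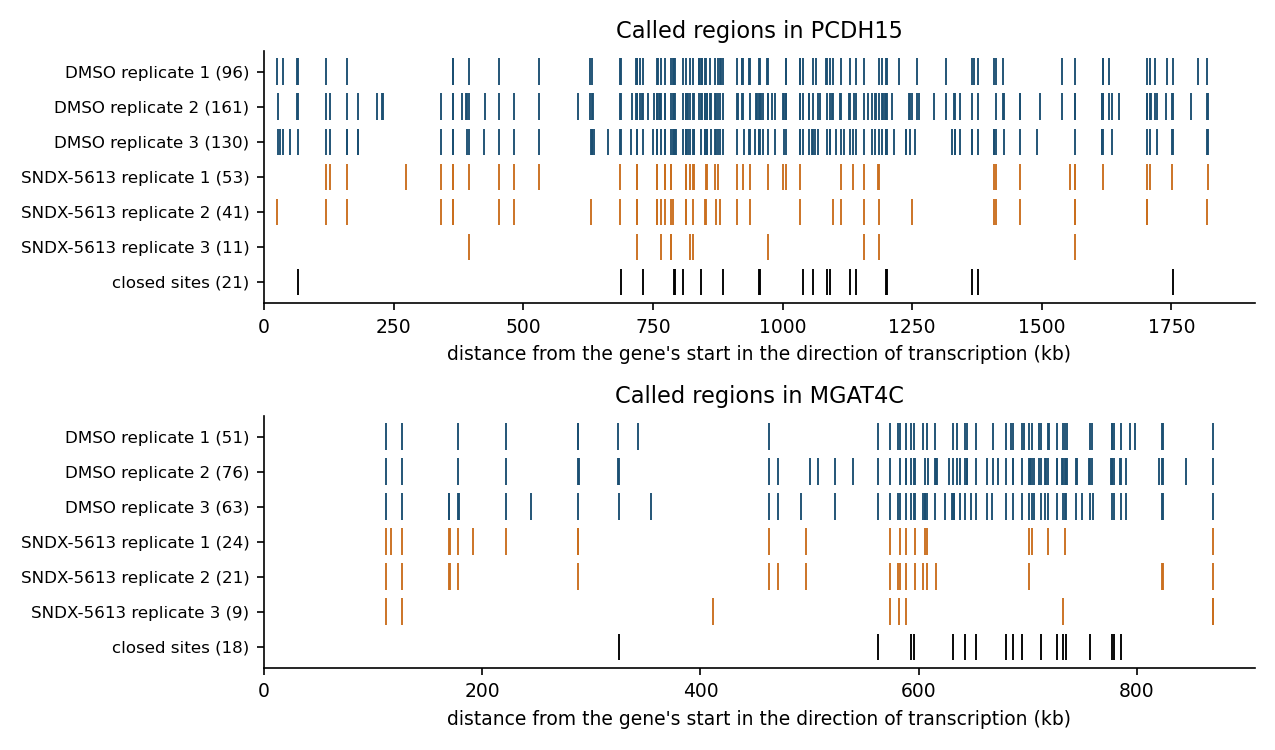
Ticks mark the centres of called regions in PCDH15 (top) and MGAT4C (bottom) in each library, against the distance from the gene's start in the direction of transcription in kb, with the closed sites in the lowest row and numbers in brackets. In PCDH15 the DMSO rows hold 96 to 161 regions and the SNDX-5613 rows 53, 41 and 11, and in MGAT4C the closed sites crowd into the far part of the gene.

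A comparable stretch of 311 kb lay on chr21:25086013-25396633, around the long noncoding RNA gene ENSG00000222042 and MRPL39, which encodes a mitochondrial ribosomal protein. Of its 38 sites with 3 DMSO peaks, 16 were closed (42.1%), 9 had a peak in 1 of the 2 deep SNDX-5613 libraries and 13 were shared. It held 52, 60 and 58 called regions in DMSO and 20, 22 and 7 in SNDX-5613, or 5.28 to 6.02 against 1.73 to 2.27 per 10000 called regions. The median local background, again read at each library's own called regions, was 1.72 to 1.81 times the genome-wide background in DMSO. In SNDX-5613 replicates 1, 2 and 3 it was 1.19, 1.08 and 1.17 times. The strongest closed sites of ENSG00000222042 had −log10 p of 23.5, 22.4 and 24.1, and of 20.5, 47.2 and 39.9. The next groups lay in ADGRL2, an adhesion G-protein-coupled receptor of the latrophilin family (7 of 12 sites closed), and in ANK3, which encodes the membrane scaffold ankyrin-G (6 of 13). In the ADGRL2 stretch the median local background was 1.78 to 1.84 times in DMSO. In SNDX-5613 replicates 1, 2 and 3 it was 1.67, 1.61 and 10.8 times. The ANK3 stretch had 3.79 to 4.12 in DMSO and 3.32 and 2.84 in SNDX-5613 replicates 1 and 2. The stretch within PCDH15 had 1.0 to 1.02 in DMSO, and too few regions in SNDX-5613 for a median. None of these 5 stretches, of 22 to 73 merged sites each, held a site with a peak in both deep SNDX-5613 libraries and in 0 DMSO libraries. Such sites of the opposite kind were 3964 of all 163356 merged sites, so few would fall in any single stretch of this size. The 5 stretches together were not tested. The stretches were picked for their closed sites, so the lower numbers of SNDX-5613 replicates 1 and 2 there follow from the choice. The medians of local background cover different sites in each library and do not show a change. The lower numbers of SNDX-5613 replicate 3, also per 10000 called regions, cannot be told apart from its low depth.

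In all, 1440 closed sites lay within 1111 genes, of which 946 held 1 and 51 held 3 or more. After PCDH15 and MGAT4C came ENSG00000222042 with 11 of 26 sites closed, NAALADL2 with 9 of 21, NEGR1, a neuronal adhesion protein, with 8 of 20, and NEBL, which encodes the actin-binding nebulette, with 8 of 29. PCDH9, another protocadherin, had 8 of 29 and GALNTL6, of the family that starts mucin-type O-glycans, had 8 of 52. The highest lowest DMSO percentile of their closed sites ranged from 28.5 in PCDH9 to 61.3 in GALNTL6. Called regions per 10000 were fewer in both deep SNDX-5613 libraries than in each DMSO library at all 8 genes, which follows from choosing the genes for their closed sites in the same libraries. In GALNTL6 the numbers were 10.1 to 11.5 in DMSO and 6.43 and 6.61 in SNDX-5613, the smallest gap of the 8 in proportion. Sites of the opposite kind lay within 3 of the 8 genes, with 2 in MGAT4C, 2 in GALNTL6 and 1 in NEBL.

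Of 34 gene families defined by symbol, cadherins and protocadherins had the largest share of closed sites (53 of 441, 12%, against 2.98% over all sites). These 53 were assigned to 12 of the 65 family genes with sites. Of them 21 lay in PCDH15, 10 in or nearest to PCDH9, and 6 in or nearest to CDH2, so a few genes carried the count. Next came SOX factors (7 of 81, 8.64%), in which all 7 lay in SOX5, ephrins and Eph receptors (11 of 160, 6.88%, over 6 genes), fibroblast growth factors (4 of 60, 6.67%), receptor tyrosine phosphatases (14 of 237, 5.91%) and collagens (15 of 269, 5.58%, over 10 genes). Potassium channel genes had 26 of 499 (5.21%). Members with values include the CDH12 promoter site (−log10 p of 21.4, 16.6 and 21.8 in DMSO replicates 1, 2 and 3), an EFNA5 site (23.6, 17.5 and 21.5), an FGF12 site (24.2, 20.3 and 15.8) and a KCNQ5 site (18.1, 27.9 and 22.3). At the low end, cytochrome P450 genes had 0 of 94, diacylglycerol kinases 0 of 34, histone lysine enzymes 1 of 105, integrins 2 of 126 and solute carriers 19 of 1126 (1.69%). Apart from solute carriers, these counts are too small to set the families apart from the 2.98% over all sites. Zinc finger genes of the ZNF series (27 of 1080, 2.50%) and long intergenic RNA genes (57 of 1933, 2.95%) stood near the share over all sites.

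Among 13 lists of named genes, the subunits of the menin-MLL and related COMPASS complexes had 0 closed of 38 sites with 3 DMSO peaks. Known menin target genes had 2 of 48 (4.17%), both in introns of MEF2C, a MADS-box transcription factor. The stronger of the 2, at chr5:88875627-88875916, had −log10 p of 23.7, 19 and 22.4 in DMSO replicates 1, 2 and 3, and the other had 11.1, 9.35 and 16.1. Genes of YAP and TEAD signalling had 6 of 143 (4.2%), in or nearest to TEAD1, YAP1, WWTR1, VGLL3 and AJUBA. The VGLL3 site lay 369572 bp from the start of that gene. Of the 6 the best ranked was a TEAD1 site with 9.72, 18.9 and 8.86, and all 6 had a lowest DMSO percentile of 30.6 or less. Receptor kinases and their ligands had 11 of 239 (4.60%), with 3 each in or nearest to ERBB4 and PDGFC. The strongest of them lay between genes, 298228 bp from the start of the growth factor gene PDGFC, and had 39.1, 35.5 and 17.2.

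Mesenchymal genes had 9 closed of 166 sites (5.42%). Of these, 6 lay in or nearest to CDH2, the gene of N-cadherin, the farthest of them 646073 bp from its start. Hepatocyte genes had 4 of 52 (7.69%). Those assigned to CPS1, as the nearest protein-coding gene, lay between genes, 461112 and 468196 bp from its start, and the others lay at FGA and FGB. The CDH2 sites had lowest DMSO percentiles from 0.248 to 37.3, and the FGA and FGB sites, in exons, had 13.4 and 17.3. The remaining lists stood near or below the share over all sites, with 2 of 187 for TGF-beta and SMAD genes, 4 of 143 for the PI3K, AKT and mTOR pathway, 1 of 89 for Hedgehog genes, 2 of 71 for TNF and NF-kB genes, 1 of 88 for interferon and IRF genes, 0 of 75 for the MYC network and 2 of 76 for cell cycle genes. Each of these counts is small, and a share near 2.98% is not a result about a list.

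Promoters made up 193 of the closed sites, 134 of them at protein-coding genes and 59 at long noncoding RNA genes. At 115 of the 134 (85.8%) the gene kept another promoter site with a peak in both deep SNDX-5613 libraries, so the closed site was not the only promoter site of the gene. The strongest was the ZBTB46 site, 104 bp from a start of this zinc finger gene known from dendritic cells, with −log10 p of 36.3, 41.4 and 42.4. GK5, a glycerol kinase gene, had a site 516 bp from a start, with 37.4, 51.4 and 26.9, and ENSG00000250803, a protein-coding gene listed by its identifier, had 35.7, 45 and 34.0. MAT2B, the regulatory subunit of methionine adenosyltransferase, had a closed site 12 bp from an annotated start, with 22.4, 25 and 32.9. HIBADH of valine catabolism had 23.6, 19.9 and 23.9, and CREM, a cyclic AMP-responsive transcription factor, had 24.2, 31.0 and 21. For HIBADH and CREM a deep SNDX-5613 peak lay 436 and 578 bp away. The GK5, MAT2B, HIBADH and CREM sites lay in the SNDX-5613 consensus set, while the ZBTB46 and ENSG00000250803 sites did not.

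The other 19 sites lay at genes that kept no promoter peak shared by both deep SNDX-5613 libraries. Besides ZBTB46 they include TMPRSS15, the gene of enteropeptidase, with −log10 p of 19.7, 38.1 and 30.8 at a site 2 bp from its start. OR14K1, an olfactory receptor gene, had 21.7, 22.9 and 21, and LCN2, which encodes the secreted iron-siderophore carrier lipocalin-2, had 12.1, 12.3 and 15. HGF, the hepatocyte growth factor gene, had a site 18 bp from a start with 5.96, 8.82 and 10.3, from pileups of 8, 12 and 14 fragments. HOXA2, a homeobox gene, had 3.37, 9.70 and 8.96, which is barely above the threshold in DMSO replicate 1. Of the 19 sites, those of ZBTB46, TMPRSS15 and OR14K1 had a lowest DMSO percentile above 50, and the other 16 stood below it. The OR14K1 and LCN2 sites lay in the SNDX-5613 consensus set, while those of ZBTB46, TMPRSS15 and HGF did not.

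Motifs were counted in the 201-base windows, beside other sites with 3 DMSO peaks weighted to the GC content of the closed sites. IRF matches (GAAANNGAA) were present in 8.34% of closed sites (167), in 5.36% of the others and in 7.04% of the others at equal GC. NF-Y matches were present in 7.34%, 7.54% and 7.33%, and KLF matches (GGGTGTG) in 4.44%, 5.27% and 4.45%. The AP-1, TEAD and CTCF motifs of distal elements were less frequent in closed sites than in the others at equal GC. AP-1 matches had 16.6% and 23.9%, TEAD matches (GGAATG) had 13.8% and 19.3%, and CTCF matches (CANNAGNGG) had 20.9% and 24.8%. SP matches, a mark of promoters rich in GC, were present in 6.89% of closed sites, 23.5% of the others and 9.51% at equal GC. Matches to GATA, searched as AGATAA, were present in 7.89% of closed sites and in 8.67% of the others at equal GC. RUNX (TGTGGT) had 13.4% and 15.5%, and forkhead (TGTTTAC) had 3.20% and 3.17%. Matches to ETS (CCGGAAGT) were found at 4 closed sites and to NRF1 (CGCATGCG) at 0, against 0.856% and 0.309% of the others at equal GC. The IRF motif was found in 5.42% and the KLF motif in 5.72% of the windows of all merged sites, TEAD in 15.6%, CTCF in 21.4%, GATA in 6.95%, RUNX in 14.6%, forkhead in 2.65%, ETS in 0.865% and NRF1 in 0.385%. The closed sites were weaker in DMSO than the others, and the part of strength in these shares was not tested.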

How the data were processed

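ATAC-seq peak lists of the HLF line after DMSO or SNDX-5613 (3 libraries each) were analysed, with groups taken from the labels. Per the study's methods and processing notes, the authors trimmed paired reads (Trim Galore 0.6.7), aligned them to hg38 (Bowtie2 2.3.4.1), marked duplicates (Picard 2.20.0), called peaks in each library without pooling replicates and combined each group into a consensus set with RMSPC. A shift for the Tn5 cut, a blacklist and a mapping quality filter are not given in the sources used here, and unfiltered reads can add peaks in repeats. The deposited lists give for each summit the fold enrichment over local background that the authors' caller wrote, its deposited −log10 p and −log10 q values, the summit's distance from the region start (column of unit other) and a deposited score that was not used. Only regions were taken from the deposited consensus sets. The study's test of read counts was not run, since the lists hold no counts.

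Summits that share a region were reduced to the strongest. Regions of 5 libraries overlapping by at least 1 bp were merged. Pileup and background were solved from fold and p of each summit (tolerance 0.002 in −log10 p). Depth as read numbers is unknown. Sites were annotated by their centre with GENCODE release 44: promoter within 1 kb of an annotated start (protein-coding genes and long noncoding RNAs), else exon, intron or intergenic. A site's gene was that of the start site for promoters, else the host gene, else the nearest protein-coding gene. Copies were alignments of the 201-base window to hg38 over at least 180 bases at 95% identity (minimap2 2.31). Python 3.11.15, pandas 2.3.3 and SciPy 1.17.1 were used, and the merging and pileup steps were tested on simulated data.

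Same-numbered libraries were taken as pairs, from the study's description of a dish split between the treatments. At 33392 sites where each of the 6 libraries had a peak, deviations of the rank percentile from the group mean had correlations of -0.165, 0.173 and 0.012 within pairs 1, 2 and 3, so the peak ranks show no common pairing. No group test was made, since peak presence chose the sites, and sites are not replicates. The closed sites, gene lists, families and motifs were chosen with earlier results of these data known. Named were the 12 closed sites with the highest lowest DMSO rank percentile, the 8 such protein-coding promoters, the 8 genes with most closed sites in their body, 5 of the largest groups, members of the 13 lists and the 3 strongest of each family. Of the windows chosen to be shown, 2 are not reported here. Sites without another promoter peak, those with a peak in SNDX-5613 replicate 3 and the 60 bins were added after their values were seen. Alternatives covered the cover required for presence, fixed windows, q thresholds, equal numbers of regions, a distance to SNDX-5613 peaks, each library left out, the shallow library, the replicate pairs, and promoter, motif and neighbour distances.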

Additional observations from a re-analysis of the deposited data

How the results depend on the processing

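The 2003 closed sites numbered 1735 to 2594 under 6 of the 7 settings that kept the 5 libraries or added SNDX-5613 replicate 3. They numbered 1328 when presence in DMSO needed −log10 q of 3 or more. Leaving out a library gave 2948 to 5734 sites: 5089 without DMSO replicate 1, 4156 without DMSO replicate 3, 5734 without SNDX-5613 replicate 1 and 3667 without SNDX-5613 replicate 2. The count thus rests on the number of libraries that must agree. The promoter share of 9.64% was 11.1% when peaks had to cover 50% of a site, 22% with fixed windows around summits, 11.2% with equal numbers of regions, 8.04% without deep SNDX-5613 peaks within 500 bp, 19.7% with promoters within 3 kb, and 9.22% to 11.4% with a library left out. By construction, fixed windows split a wide region into several sites. The intron share of 59.5% was 56.5% at 50% cover, 50.5% with fixed windows, 57.2% with equal numbers, and 55.8% to 57.5% with a library left out. The intergenic share of 27.1% was 24.3% with fixed windows and 27.7% to 29.1% with a library left out.

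The share with a neighbour within 50 kb, 23.1%, moves with the number of sites. It was 17.0% at 50% cover, 19.2% with −log10 q of 3 or more in every library, 16.8% with this threshold for DMSO only, 20.4% with equal numbers, 28.1% to 35.9% with a library left out (35.9% without DMSO replicate 1), 8.54% within 10 kb and 44.5% within 200 kb. The IRF share of 8.34% was 7.06% to 8.26% with a library left out and 20.9% within 250 bp of the summit. Peaks of SNDX-5613 replicate 3, at 2.50% of closed sites, were found at 5.24% with fixed windows, 0.749% with −log10 q of 3 or more in every library and 3.37% with equal numbers. With a library left out the share was 1.89% to 4.27% (4.27% without SNDX-5613 replicate 1 and 3.79% without SNDX-5613 replicate 2). Other settings moved these values by less than 1.5 times for the count of sites, and stayed within the 95% binomial interval for the shares. The intervals cover sites only. With the replicate number as a block, added after the data were seen, a site had to have a DMSO peak and no SNDX-5613 peak in each of the pairs 1 and 2. By construction this equals leaving out DMSO replicate 3, and it gave 4156 sites, a promoter share of 11.4%, an intron share of 55.8% and a neighbour share of 30.6%. In pair 1, 14001 sites had a peak in DMSO only and 33258 in SNDX-5613 only, and in pair 2 34951 and 20556 did. Depth limits the result, since peak lists hold no signal below the calling threshold and SNDX-5613 replicate 3 called weak sites less often, with a peak at 12.1% of the other sites below DMSO percentile 20 and at 96.2% from percentile 80.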
